A study of Mus musculus with 12 samples.

Results

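A set of 8 genes of epithelial junctions, adhesion and polarity was followed across mammary glands, breast tumors and tumor-derived cell lines of mice: Epcam, Cldn3, Cldn4, Cldn7, Tjp1, Dsp, Spint1 and Crb3. They were chosen by name, with earlier results of these data known, so shares set beside those of all genes are description only. Every probe set that the platform annotation gives to one of them was taken. This gave 8 genes with 15 probe sets, out of 12393 genes with 20380 probe sets that name a single gene. Cldn3 had 4 probe sets, Dsp and Crb3 had 3 each, and the others had 1 each. RNA was measured on 12 single-color arrays, 1 array for each sample. The cell lines were ME-A, the revertant ME-B and the retransformed ME-B-T/t, each a breast cancer line with 1 array. The tumors were 3 breast cancers of WAP-SVT/t mice. The WAP-SVT/t glands were mammary tissue of 3 such females on day 1 of lactation, and the NMRI glands were the same tissue and day in 3 females without the transgene. All animals were of the NMRI strain. The sources used here do not give their ages. In WAP-SVT/t mice the promoter of the whey acidic protein gene drives the SV40 T/t antigens in mammary epithelial cells, so its expression is directed to the epithelium. Tissue samples were whole segments that hold several cell types, and fewer epithelial cells and less RNA per epithelial cell cannot be told apart in them.

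Epithelial cells are joined near their apical edge by tight junctions, in which claudins of neighbouring cells seal the gap and the scaffold protein of Tjp1 (ZO-1) ties them to actin. Below these, desmosomes anchor keratin filaments through desmoplakin, the product of Dsp. Epcam is a surface adhesion protein that binds claudin-7, Spint1 (HAI-1) inhibits membrane serine proteases such as matriptase, and Crb3 is a small apical protein that sets up polarity. In the lactating gland these junctions keep milk and blood apart.

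Signals are MAS5 intensities scaled to a common level, and values under a floor of 57.4 were treated as that floor before log2 was taken. On each array 67.7% to 72.6% of probe sets exceeded it. The Gapdh control signal of the 3-prime probes over that of the 5-prime probes, a measure of how far RNA is degraded, was between 0.753 and 0.949 in the lines. It was 5.63, 0.982 and 0.969 in tumors, 10.7, 2.49 and 22.5 in WAP-SVT/t glands, and 12.9, 2.28 and 40.3 in NMRI glands. Luminal epithelial markers were present in every tissue, with a mean log2 signal over 10 genes of 9.83 to 10.2 in tumors, 9.94 to 10.2 in WAP-SVT/t glands and 10.1 to 10.7 in NMRI glands. In the lines the same markers averaged 10.5 in ME-A, 6.72 in ME-B-T/t and 7.13 in ME-B. Fibroblast and matrix markers ran the other way, at 6.94 in ME-A, 10.5 in ME-B-T/t and 9.71 in ME-B over 18 genes. The luminal keratin Krt18 had signals of 2392 in ME-A and, below the floor, 55.0 in ME-B-T/t and 40.5 in ME-B. Krt7, Muc1 and Elf5 were also below the floor in both ME-B lines. Pgr was below it in every line. Kit had 2691 in ME-A, 43.2 in ME-B-T/t, below the floor, and 101 in ME-B. The luminal markers Krt8, Krt19, Cd24a and Esr1 stayed above the floor in both ME-B lines. Krt8 had 3748 in ME-A, 107 in ME-B-T/t and 199 in ME-B, and Krt19 had 3148, 108 and 932. Cd24a had 7111, 3547 and 3741 in the same order. Esr1 went the other way, at 23.8 in ME-A, 112 in ME-B-T/t and 66.6 in ME-B. Single tissue arrays stood apart in other cell types. Skeletal muscle markers averaged a log2 signal of 9.77 in tumor 1 and 6.10 and 5.92 in the other tumors, 10.6 in WAP-SVT/t gland 3 and 6.55 and 6.71 in the other WAP-SVT/t glands, and 9.55 to 10.5 in NMRI glands. Adipocyte markers averaged 9.23 in tumor 1 and 6.75 and 6.85 in the other tumors. Results are given without these arrays where that changes a call.

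**Figure D1:**
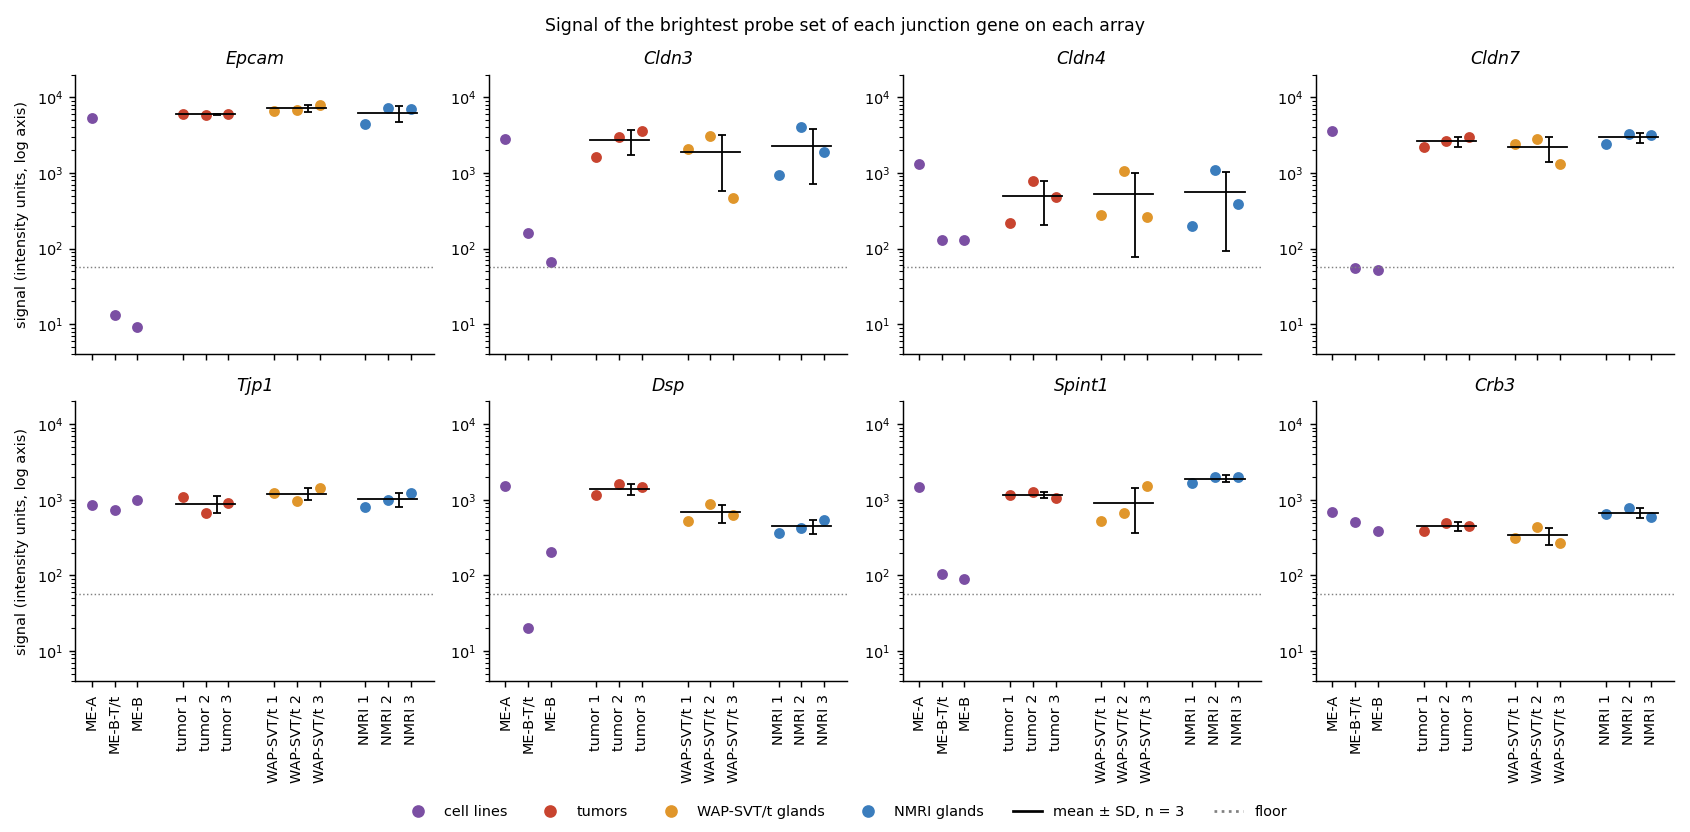
Scaled signal in intensity units (log axis) of the brightest probe set of each gene on each of the 12 arrays, with the mean and SD of 3 arrays for tumors, WAP-SVT/t glands and NMRI glands and the floor as a dotted line. Epcam sits at 5306 in ME-A and at 13.2 and 9.05 in ME-B-T/t and ME-B, while Tjp1 lies between 661 and 1425 on all 12 arrays.

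Differences between the cell lines were wide. ME-A had 6 of the 8 genes at 4-fold or more above both ME-B lines: Epcam, Cldn7, Cldn3, Spint1, Cldn4 and Dsp. Tjp1 and Crb3 did not reach 4-fold. Of all 7945 genes compared, 225 (2.83%) were 4-fold or more higher in ME-A and 161 (2.03%) were lower. Each line was 1 array, so these are differences between 3 arrays with no replicate check and no test.

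Among the adhesion proteins and claudins, Epcam had a signal of 5306 in ME-A, against 13.2 in ME-B-T/t and 9.05 in ME-B. Both ME-B lines were below the floor, so Epcam was at least 92.4-fold higher in ME-A. Cldn7, the claudin that Epcam binds, had 3549 in ME-A, against 56.0 in ME-B-T/t and 52.7 in ME-B, which makes it at least 61.8-fold higher. The brightest Cldn3 probe set had 2825 in ME-A, against 160 in ME-B-T/t and 67.3 in ME-B. It was 17.7-fold over ME-B-T/t and 42.0-fold over ME-B. The other 3 Cldn3 probe sets were below the floor in both ME-B lines and at 1243 to 2451 in ME-A, so they were at least 21.6-fold to 42.7-fold higher there. Cldn4, another claudin of the same barrier, had 1294 in ME-A, against 131 in ME-B-T/t and 129 in ME-B, 9.86-fold over ME-B-T/t and 10.02-fold over ME-B. All 4 genes were thus low in both ME-B lines, although Cldn4 stayed above the floor there.

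Spint1, the protease inhibitor, had 1454 in ME-A, against 103 in ME-B-T/t and 89.5 in ME-B, 14.1-fold over ME-B-T/t and 16.2-fold over ME-B. The brightest Dsp probe set had 1541 in ME-A, against 20.2 in ME-B-T/t and 206 in ME-B. Dsp was therefore 7.49-fold higher in ME-A than in ME-B and at least 26.8-fold higher than in ME-B-T/t, the member with the widest step between the ME-B lines. Tjp1 had 860 in ME-A, against 727 in ME-B-T/t and 992 in ME-B, with ME-A between them. The brightest Crb3 probe set had 684 in ME-A, against 511 in ME-B-T/t and 385 in ME-B. A second Crb3 probe set, 1434851_s_at, had 461 in ME-A, against 63.7 in ME-B-T/t and a signal below the floor in ME-B, so it was 7.25-fold higher than in ME-B-T/t and at least 8.03-fold higher than in ME-B. The Crb3 result therefore depends on the probe set, and 11 of the 15 probe sets of the 8 genes were 4-fold or more above both ME-B lines. The median log2 difference of the 8 genes was 3.56, with genes at the floor held at their bound, against -0.01 over all genes. Scaling the arrays on Krt8 and Krt18, which themselves differ between the lines, moved the median of all genes to -4.63. Epcam (3.40) was then the 1 gene of the 8 past 4-fold higher, Tjp1 (-5.01) and Crb3 (-3.98) were past 4-fold lower, and Cldn4, Dsp and Spint1 were below 0. Cldn7 (0.73) and Cldn3 (0.58) stayed higher in ME-A, under 4-fold. Under this scaling 11530 of 12309 genes were 4-fold or more lower in ME-A. The directions of Cldn4, Dsp, Spint1 and Crb3, and the 4-fold size of Cldn7 and Cldn3, thus changed together with nearly all genes. This setting cannot decide the directions of single genes.

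**Figure D2:**
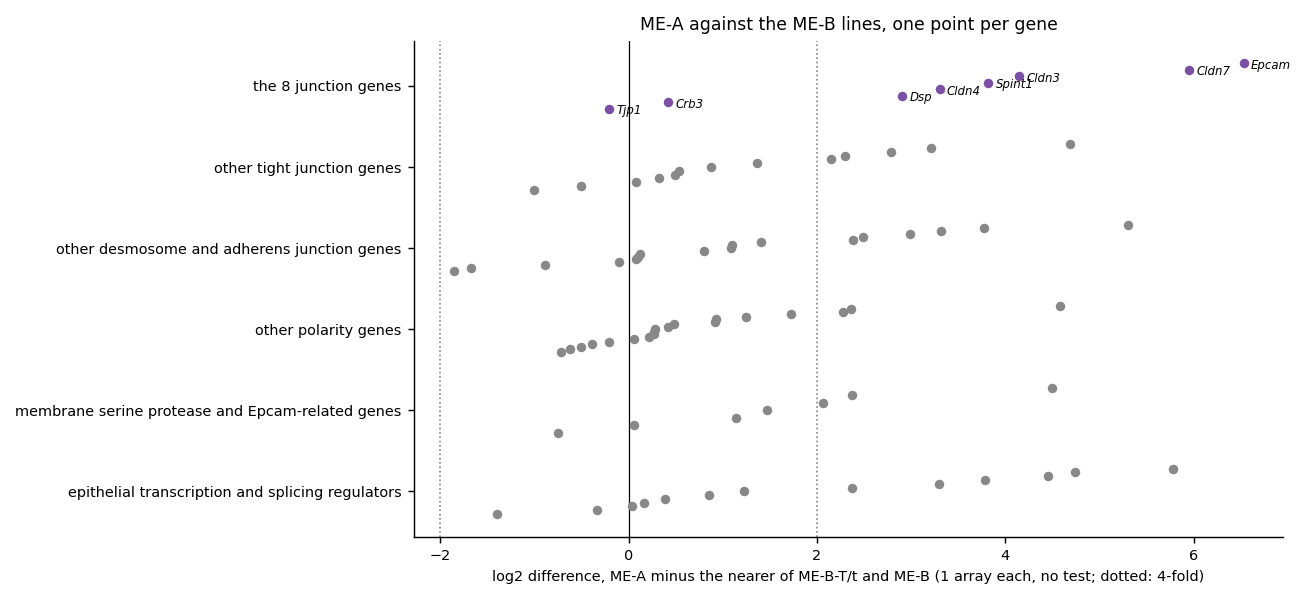
Log2 difference of ME-A minus the nearer of ME-B-T/t and ME-B for each of the 8 junction genes and for the genes of 5 related lists, 1 point per gene, with dotted lines at 4-fold. The points of the 8 genes run between -0.20 for Tjp1 and 6.53 for Epcam, and with arrays scaled on all probe sets no gene of these lists was 4-fold or more lower in ME-A.

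Genes that work beside the 8 were compared in the same way. Of 13 other tight junction genes, 5 were past 4-fold higher in ME-A, among them Lsr of tricellular junctions, Tjp3 and occludin (Ocln), with signals in ME-A of 1484, 880 and 397. Of 17 other desmosome and adherens junction genes, 6 were, led by E-cadherin (Cdh1) at 2936 in ME-A, against 38.1 in ME-B-T/t and 74.4 in ME-B. The desmosomal cadherin Dsg2 and the plakophilin Pkp1 were 13.7-fold and at least 9.99-fold higher. Of 7 serine protease and Epcam-related genes, 3 were: St14 (matriptase), the protease that Spint1 inhibits, was 22.5-fold higher over the nearer line, Prss8 (prostasin) at least 5.19-fold, and the inhibitor Spint2 4.19-fold. Of 19 polarity genes 3 were past 4-fold, namely Rab25, Myo5b and Patj. Of 13 epithelial regulators of transcription and splicing, 6 were, with Elf5 at least 54.8-fold, Ehf at least 26.8-fold and Esrp1 at least 21.9-fold higher. The lists were chosen with results on these arrays known, and some members of 1 list act together with members of another.

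Between ME-B-T/t and ME-B, none of the 8 genes reached 4-fold in either direction with signals held at the floor. Of all 7945 genes, 89 (1.12%) were 4-fold or more higher in ME-B-T/t and 45 (0.566%) were lower. Dsp was at least 3.58-fold lower in ME-B-T/t, where it was below the floor, so this is a bound set by the floor. With log2(signal + 16) in place of the floor its difference was -2.62, past 4-fold. A second Dsp probe set, 1435493_at, had 69.6 in ME-B-T/t, against 133 in ME-B. Cldn3 was 2.37-fold higher in ME-B-T/t on its brightest probe set, while its other 3 probe sets were below the floor in both lines. Epcam and Cldn7 were below the floor in both, so no fold can be given. For the remaining members the lines differed by at most 1.36-fold. Perp, a desmosome-associated membrane protein, was 4.49-fold lower and the epithelial regulator Klf5 8.56-fold lower in ME-B-T/t.

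The promoters of the 8 genes were read from RefSeq (build GRCm38.p6), since 6 of the genes differed together between the lines. The window ran 250 bases upstream to 50 bases downstream of each start. The letters searched were CACCTG and its reverse complement CAGGTG, an E-box bound in other systems by zinc finger factors of the Snail and Zeb families. All 8 genes matched the table, and 6 of them held the motif in at least 1 promoter: Epcam, Cldn3, Cldn4, Cldn7, Dsp and Crb3. Tjp1 and Spint1 did not. The 1 Tjp1 window ended at position 65371494 of chromosome 7 on the minus strand, inside a gene annotated up to 65527850. A start at that far end was not searched. Over the whole table, 22.6% of 27025 genes held it. The letters AACCGGTT, a motif bound by Grainyhead-like factors, were in none of the 8 and in 0.174% of all genes. Copies of the motif from each of the 6 genes are shown in 30 bases of context each, 5′ to 3′ on the strand of the gene, with the E-box in capitals, so that the copies can be compared.
Epcam, chr17:87635780-87635809, plus strand: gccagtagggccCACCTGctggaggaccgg
Epcam, chr17:87635948-87635977, plus strand: acccataaaaccCAGGTGtggaggagaagc
Cldn3, chr5:134986233-134986262, plus strand: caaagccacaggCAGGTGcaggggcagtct
Cldn4, chr5:134946931-134946960, minus strand: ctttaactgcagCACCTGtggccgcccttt
Cldn4, chr5:134946906-134946935, minus strand: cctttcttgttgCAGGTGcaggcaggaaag
Cldn7, chr11:69965312-69965341, plus strand: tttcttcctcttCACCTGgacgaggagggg
Cldn7, chr11:69965352-69965381, plus strand: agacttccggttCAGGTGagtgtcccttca
Dsp, chr13:38151285-38151314, plus strand: gaagaagccgacCAGGTGtggcctgggcgc
Crb3, chr17:57062071-57062100, plus strand: cccctgtgcttaCACCTGctcatttccgcc
Crb3, chr17:57062126-57062155, plus strand: gggttcccgttaCAGGTGctctggcggcgc

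The motif starts lay 187 and 19 bases upstream of the Epcam start, 14 bases upstream and 11 bases downstream of the Cldn4 start, and 97 and 57 bases upstream of the second of 2 Cldn7 starts. In Crb3 the copies shown lay 118 and 63 bases upstream of the first start, and in Cldn3 and Dsp the motif lay 31 and 3 bases downstream of the start. Crb3 held 4 copies in all, more than any other of the 8 genes, and its brightest probe set was one of those that did not reach 4-fold. Spint1, with no copy, was 14.1-fold higher in ME-A. The upstream stretches of Epcam and Tjp1 are printed whole, because these genes mark the widest and the narrowest difference between the lines. A pair of E-boxes stands in capitals in the Epcam stretch. The Tjp1 stretch, which lies upstream of a start inside the gene, has none. These are letters in a sequence, and binding was not measured.
Epcam, chr17:87635729-87635978, plus strand: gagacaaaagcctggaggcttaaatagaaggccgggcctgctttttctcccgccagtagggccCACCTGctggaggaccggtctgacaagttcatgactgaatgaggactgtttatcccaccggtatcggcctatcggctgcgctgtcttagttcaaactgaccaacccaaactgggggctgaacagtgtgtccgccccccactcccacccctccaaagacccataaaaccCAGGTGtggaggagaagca
Tjp1, chr7:65371245-65371494, minus strand: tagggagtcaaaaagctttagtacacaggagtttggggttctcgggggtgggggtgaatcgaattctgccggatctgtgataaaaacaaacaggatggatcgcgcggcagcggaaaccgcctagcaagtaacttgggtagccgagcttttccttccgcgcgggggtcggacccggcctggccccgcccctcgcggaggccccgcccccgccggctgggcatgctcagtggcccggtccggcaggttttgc

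Against the tumors, the 3 lines as a class had none of the 8 genes past an adjusted p of 0.05, in limma with Benjamini-Hochberg adjustment over 7344 genes. In that fit 31 genes (0.422%) were higher and 138 (1.88%) lower in the lines. At an unadjusted p under 0.05 the members Epcam and Cldn3 were lower. They ranked 848 and 1150 by p among the 7344 genes, so at least 1150 genes met that bar. Epcam had 5306, 13.2 and 9.05 in ME-A, ME-B-T/t and ME-B, against 5996, 5867 and 5953 in the tumors. All 3 lines lay below all 3 tumors. With both ME-B lines held at the floor, the log2 difference was -4.52 ± 1.64 (standard error), with an adjusted p of 0.236 (limma). It was the one member without overlap, while 23.5% of all genes did not overlap. The median log2 difference of the 8 genes was -2.34, against -0.001 over all genes.

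The lines differed widely among themselves in this comparison. Without ME-A, 5 of the 8 genes were lower in the remaining 2 lines than in the tumors, beside 540 of 7138 genes lower (7.57%) and 239 higher (3.35%). The 2 lines are the revertant ME-B and the retransformed ME-B-T/t with 1 array each, so they are related lines and not replicates of a condition, and the p-values here treat them as independent. Their log2 differences were -6.69 for Epcam (adjusted p = 2.34e-05, limma), -5.50 for Cldn7 (4.71e-05), -4.64 for Cldn3 (0.000965), -3.67 for Dsp (0.00390) and -3.58 for Spint1 (0.000303). Epcam and Cldn7 were held at the floor in both lines and Dsp in ME-B-T/t, so these differences are bounds set by the floor. For Epcam and Cldn7 the lines then had equal values and added no spread, so the floor enters their p-values. Leaving out tumor 1, tumor 2 or tumor 3 left 0, 1 and 3 genes called of all tested. ME-A itself was within the range of the tumors in 7 of 15 probe sets, above all tumors in 7 and below all in 1, that of Epcam. Both ME-B lines were below all tumors in 11 of the 15. The shares of all probe sets in such positions were not computed, so these counts only describe the members. Cldn4 and Spint1 in ME-A, at 1294 and 1454, exceeded the highest tumors at 793 and 1269. Macrophage markers, which come from tissue cells and not from epithelium, were lower in the lines for all 12 tested genes, and their part in the comparison was not tested.

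Between tumors and NMRI glands, Dsp was higher and was the 1 member of 8 past the threshold. No member was lower past it. In the whole fit, 1021 of 7899 genes (12.9%) were higher and 928 (11.7%) lower in tumors, so 1 of 8 is near the background. The brightest Dsp probe set had signals of 1145, 1595 and 1462 in tumors, against 363, 427 and 547 in NMRI glands. Every tumor was above every NMRI gland. Tumors averaged 1401 ± 231 and NMRI glands 446 ± 93.7 (SD, n = 3 each), a log2 difference of 1.66 ± 0.27 (standard error), or 3.16-fold, with an adjusted p of 0.00148 in limma. A second probe set, 1435493_at, had 580, 848 and 739 in tumors, against 167, 176 and 321 in NMRI glands. It too did not overlap, at 1.76 ± 0.31 (adjusted p = 0.00278, limma, over all probe sets). The third Dsp probe set did not rise above the median signal on any array and was not tested. Dsp passed in each of the 16 other settings and 6 fits with 1 array left out, with adjusted p between 0.000916 and 0.0130. With the Gapdh ratio as a covariate it was among those that passed.

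Spint1 and Crb3 lay lower in tumors on every array, without passing. Spint1 had 1158, 1269 and 1039 in tumors, against 1671, 2019 and 2019 in NMRI glands, a log2 difference of -0.72 ± 0.34 with an adjusted p of 0.151 (limma). Crb3 had 383, 495 and 455 on its brightest probe set in tumors, against 649, 785 and 591 in NMRI glands, at -0.60 ± 0.25 (adjusted p = 0.104, limma). Neither overlapped between the groups, as was true of 43.9% of all genes. Crb3 was called in 3 of 16 other settings and Spint1 in 1, the fit of only the groups compared (adjusted p = 0.0256, limma). A further Crb3 probe set, 1455115_a_at, had 143, 248 and 223 in tumors, against 556, 591 and 333 in NMRI glands, and passed when probe sets were tested on their own (-1.26 ± 0.30, adjusted p = 0.0128, limma).

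Epcam and the claudins overlapped between tumors and NMRI glands. Epcam had 5996, 5867 and 5953 in tumors, against 4468, 7149 and 7087 in NMRI glands. The tumors were nearly equal and sat inside the range of the glands, with a log2 difference of -0.04 ± 0.20. Cldn7 had 2191, 2661 and 2997 in tumors, against 2405, 3234 and 3189 in NMRI glands, at -0.17 ± 0.29. Cldn3 had 1613, 3001 and 3588 in tumors, against 950, 4024 and 1892 in NMRI glands, and Cldn4 had 216, 793 and 477 in tumors, against 202, 1083 and 386 in NMRI glands. For Cldn3 and Cldn4 the standard errors of the log2 difference were 0.67 and 0.70, wider than the differences of 0.42 and -0.01, so differences of this size were not detectable with 3 arrays a group. Tjp1 had 1098, 661 and 904 in tumors, against 793, 1003 and 1228 in NMRI glands, at -0.19 ± 0.27. The median log2 difference of the 8 genes was -0.10, against 0.02 over all genes. Directions of Epcam, Cldn3, Cldn4, Cldn7 and Tjp1 turned under at least 1 other setting.

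**Figure D3:**
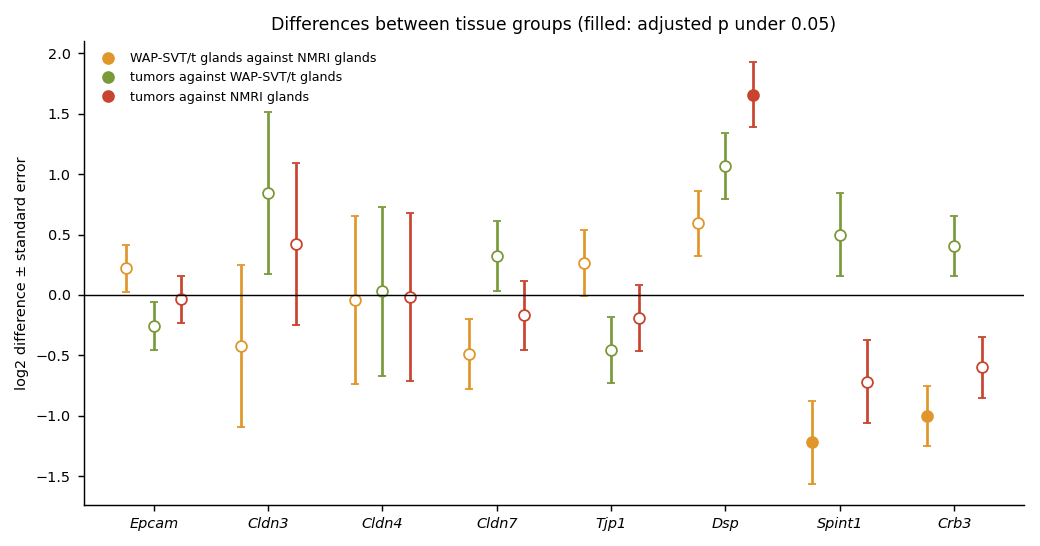
Log2 difference with its standard error for each gene in the comparisons of WAP-SVT/t glands with NMRI glands, tumors with WAP-SVT/t glands and tumors with NMRI glands (3 arrays a group). Filled points passed an adjusted p of 0.05: Spint1 at -1.22 and Crb3 at -1.004 in WAP-SVT/t glands against NMRI glands, and Dsp at 1.66 in tumors against NMRI glands.

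The related genes were compared between tumors and NMRI glands in the same fit, in which 12.9% of all genes were higher and 11.7% lower. Of 16 other tight junction genes tested, 1 was higher and 4 lower in tumors. The claudin Cldn8 was lower by a log2 difference of -3.70 ± 0.59 (adjusted p = 0.00123, limma), Cldn15 and Marveld3 were lower at log2 differences of -1.57 and -1.43, and Lsr was higher at 1.71. Of 17 desmosome and adherens junction genes, 2 were higher (Pkp1 and Nectin3) and 2 lower (Pkp2 and Nectin2). Of 17 polarity genes, 2 were higher (Ezr and Scrib) and 1 lower (Pard6g). Among 6 protease and Epcam-related genes, Prss8, Tmprss4 and Spint2 were lower and none higher. Of 13 epithelial regulators, Klf4 was higher and Elf5 lower. Luminal markers were higher in 1 and lower in 4 of 8 tested, basal and myoepithelial markers lower in 8 of 8, adipocyte markers lower in 7 of 7 and macrophage markers higher in 8 of 12. The part of these cell types in the member values was not tested.

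Between tumors and WAP-SVT/t glands, none of the 8 genes passed. In this comparison 98 of 7899 genes (1.24%) were higher and 135 (1.71%) lower in tumors. Dsp was nearest, with 1145, 1595 and 1462 in tumors, against 519, 881 and 636 in WAP-SVT/t glands. The groups did not overlap, the log2 difference was 1.07 ± 0.27 (2.09-fold), and the adjusted p was 0.0645 in limma. It passed without WAP-SVT/t gland 2 (adjusted p = 0.0432, limma). Epcam had 5996, 5867 and 5953 in tumors, against 6553, 6814 and 8001 in WAP-SVT/t glands. Every tumor was lower, by a log2 difference of -0.26 ± 0.20 (adjusted p = 0.567, limma). These were 2 of 8 genes without overlap, beside 19.6% of all genes. At an unadjusted p under 0.05, Dsp alone of the 8 differed, at rank 288 by p among the 7899 genes. How many of all genes met that bar was not counted.

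The other members overlapped on their brightest probe sets. Spint1 had 1158, 1269 and 1039 in tumors, against 530, 666 and 1530 in WAP-SVT/t glands, where gland 3 stood above all tumors and the other glands below them. Cldn7 had 2191, 2661 and 2997 in tumors, against 2421, 2830 and 1305 in WAP-SVT/t glands. Tjp1 had 1098, 661 and 904 in tumors, against 1224, 971 and 1425 in WAP-SVT/t glands. For both, the groups overlapped and tumors held the lowest Tjp1 value. Cldn3 had 1613, 3001 and 3588 in tumors, against 2096, 3042 and 471 in WAP-SVT/t glands, with the lowest value again in gland 3. Cldn4 had 216, 793 and 477 in tumors, against 282, 1058 and 258 in WAP-SVT/t glands (0.03 ± 0.70), so the groups overlapped and array 2 was the brightest in each. The brightest Crb3 probe set had 383, 495 and 455 in tumors, against 317, 437 and 269 in WAP-SVT/t glands (0.40 ± 0.25). Its probe set 1434851_s_at had 177, 263 and 236 in tumors, against 420, 387 and 346 in WAP-SVT/t glands (-0.78 ± 0.26, adjusted p = 0.180, limma). The groups did not overlap on 1434851_s_at, as was true of 19.6% of all genes, each taken on its brightest probe set. These probe sets of Crb3 pointed in opposite directions and neither passed. The related lists gave no called junction, polarity or protease gene here, and the regulator Elf5 was lower in tumors (-1.30 ± 0.27, adjusted p = 0.0291, limma). Basal and myoepithelial markers were lower in 7 of 8 and adipocyte markers in 7 of 7 tested.

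In WAP-SVT/t glands, Spint1 and Crb3 were lower than in NMRI glands, 2 of the 8 genes, and none was higher. Over all 7899 genes, 481 (6.09%) were higher and 320 (4.05%) lower. Spint1 had signals of 530, 666 and 1530 in WAP-SVT/t glands, against 1671, 2019 and 2019 in NMRI glands. All WAP-SVT/t glands were below all NMRI glands, although gland 3 was close. WAP-SVT/t glands averaged 909 ± 542 and NMRI glands 1903 ± 201 (SD, n = 3 each), and the log2 difference was -1.22 ± 0.34, or 2.33-fold lower, with an adjusted p of 0.0472 in limma. The brightest Crb3 probe set had 317, 437 and 269 in WAP-SVT/t glands, against 649, 785 and 591 in NMRI glands. Again no array of one group reached the other, with means of 341 ± 86.3 in WAP-SVT/t glands and 675 ± 99.5 in NMRI glands and a log2 difference of -1.004 ± 0.25 (2.01-fold lower, adjusted p = 0.0271, limma). Groups without overlap were found in 31.1% of all genes.

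Both calls were close to the threshold. Leaving out WAP-SVT/t gland 1, NMRI gland 1 or NMRI gland 2 left 0 of the 8 genes called, and leaving out any other gland left 1. That 1 was Crb3 without WAP-SVT/t gland 2 (adjusted p = 0.0204, limma) or NMRI gland 3 (0.0457), and Spint1 without WAP-SVT/t gland 3 (0.00150). Over 17 other settings Crb3 passed in 13 and Spint1 in 9. For Crb3 the probe sets disagreed: 1455115_a_at had 222, 184 and 208 in WAP-SVT/t glands, against 556, 591 and 333 in NMRI glands (-1.23 ± 0.30, adjusted p = 0.0284, limma). Probe set 1434851_s_at had 420, 387 and 346 in WAP-SVT/t glands, against 279, 454 and 337 in NMRI glands, at 0.13 ± 0.26 (adjusted p = 0.800, limma). It overlapped between the groups, so the Crb3 result holds for 2 of its 3 probe sets.

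The remaining genes overlapped between the glands. Epcam had 6553, 6814 and 8001 in WAP-SVT/t glands, against 4468, 7149 and 7087 in NMRI glands, at 0.22 ± 0.20. Cldn7 had 2421, 2830 and 1305 in WAP-SVT/t glands, against 2405, 3234 and 3189 in NMRI glands (-0.49 ± 0.29), with gland 3 the low one. Dsp had 519, 881 and 636 in WAP-SVT/t glands, against 363, 427 and 547 in NMRI glands (0.59 ± 0.27, adjusted p = 0.193, limma), and one NMRI gland lay inside the range of the WAP-SVT/t glands. Its probe set 1435493_at had 347, 528 and 408 in WAP-SVT/t glands, against 167, 176 and 321 in NMRI glands, without overlap (1.00 ± 0.31, adjusted p = 0.0704, limma). On both measured Dsp probe sets, mean signals were thus highest in tumors, in between in WAP-SVT/t glands and lowest in NMRI glands, and tumors and NMRI glands were the pair that differed past the threshold. Cldn3 had 2096, 3042 and 471 in WAP-SVT/t glands, against 950, 4024 and 1892 in NMRI glands. Cldn4 had 282, 1058 and 258 in WAP-SVT/t glands, against 202, 1083 and 386 in NMRI glands. In both claudins gland 2 of either genotype was the brightest. Tjp1 had 1224, 971 and 1425 in WAP-SVT/t glands, against 793, 1003 and 1228 in NMRI glands. The median log2 difference of the 8 genes was -0.23, against 0.01 over all genes.

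Among the related genes, Prss8 was lower in WAP-SVT/t glands than in NMRI glands (-1.72 ± 0.38, adjusted p = 0.0160, limma) and was the 1 of 6 protease and Epcam-related genes called. Marveld3 was lower (-1.23), the 1 of 16 tight junction genes, while the armadillo-repeat protein Pkp4 (0.97) and the actin linker Ezr (0.97) were higher, each the 1 of 17 in its list. None of 13 epithelial regulators was called. Of the luminal markers 1 of 8 was lower, namely Muc1. Macrophage markers were higher in 3 of 12 and fibroblast and matrix markers in 2 of 18, and their part was not tested.

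The comparisons between tissues share their arrays, so their differences are not independent, and the group means are best set side by side. Spint1 had mean log2 signals of 10.2 in tumors, 9.67 in WAP-SVT/t glands and 10.9 in NMRI glands, so NMRI glands stood highest and WAP-SVT/t glands lowest. The brightest Crb3 probe set had the same order, with 8.79 in tumors, 8.38 in WAP-SVT/t glands and 9.39 in NMRI glands. On these probe sets tumors, in the middle, did not differ past the threshold from either gland group. The other Crb3 probe sets had other orders: 1434851_s_at averaged 225 in tumors, 384 in WAP-SVT/t glands and 357 in NMRI glands, and 1455115_a_at averaged 205 in tumors, 205 in WAP-SVT/t glands and 493 in NMRI glands. Dsp had 10.4 in tumors, 9.37 in WAP-SVT/t glands and 8.78 in NMRI glands, and WAP-SVT/t glands, in the middle, did not differ past the threshold from either. For Epcam, Cldn3, Cldn4, Cldn7 and Tjp1 no pair of tissue groups differed past the threshold.

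**Figure D4:**
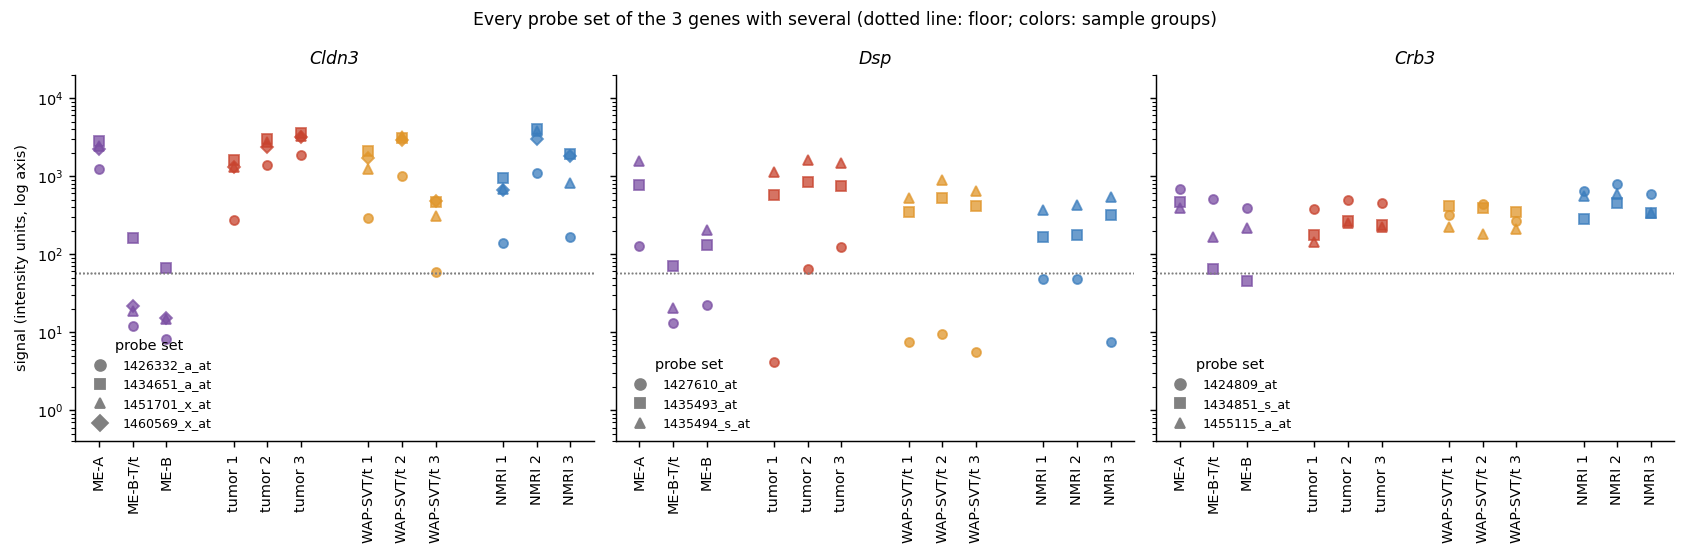
Scaled signal in intensity units (log axis) of every probe set of Cldn3, Dsp and Crb3 on the 12 arrays, with colors for the lines, tumors, WAP-SVT/t glands and NMRI glands and the floor as a dotted line. The 4 Cldn3 probe sets follow each other, Dsp 1427610_at reaches at most 126 on any array, and Crb3 1434851_s_at falls to 63.7 and 45.0 in ME-B-T/t and ME-B where the other Crb3 probe sets do not drop below 164.

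The Gapdh ratio, which varied between the 9 tissue arrays, was set beside the signals. The correlation of log2 signal with the log2 ratio was between -0.93 and -0.69 for the 4 Cldn3 probe sets, -0.65 for Cldn4, -0.41 for Cldn7 and -0.66 for the brightest Dsp probe set. For Tjp1 it was 0.69, for Epcam 0.20 and for Spint1 0.25. Over 11651 probe sets the 5th and 95th percentiles of such values were -0.79 and 0.73, and 2 of the 15 probe sets of the 8 genes, both of Cldn3, lay outside that range. These values describe 9 arrays that share their tissue groups. With the ratio as a covariate, Cldn3 between tumors and NMRI glands turned to -0.78 and Tjp1 to 0.12, while Dsp, Spint1 and Crb3 kept their directions. Without both glands numbered 3, whose ratios were the highest, Dsp in tumors against NMRI glands was called and Spint1 in WAP-SVT/t against NMRI glands was called (-1.63, adjusted p = 0.00690, limma). Crb3 in WAP-SVT/t against NMRI glands then had a log2 difference of -0.94 and an adjusted p of 0.0849 (limma).

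**Figure D5:**
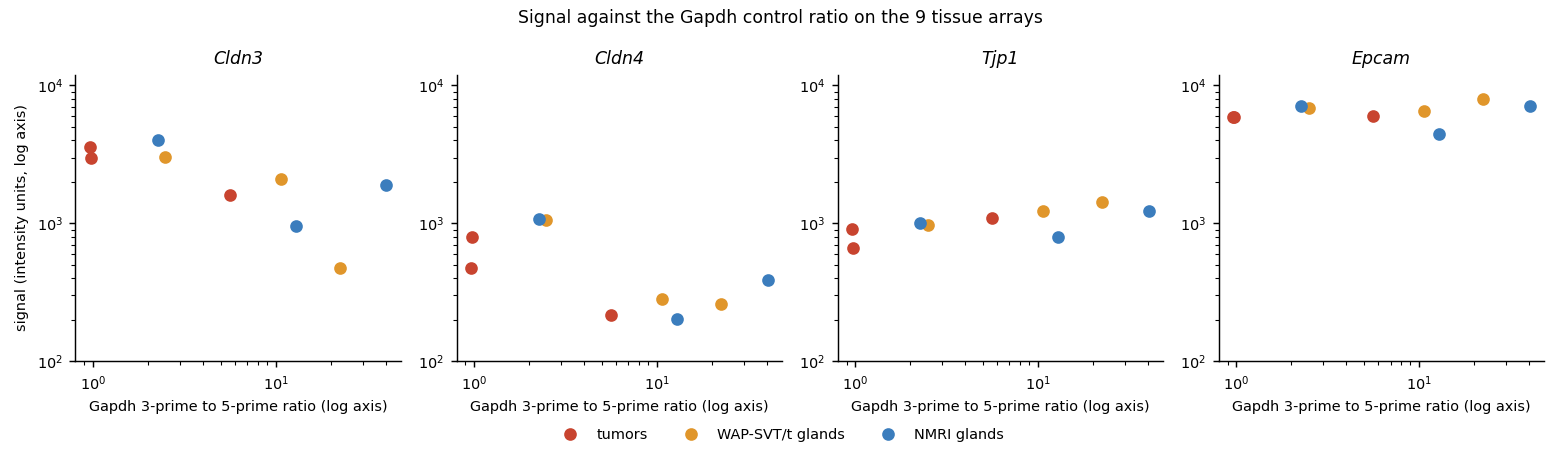
Scaled signal in intensity units against the Gapdh 3-prime to 5-prime ratio (both log axes) on the 9 tissue arrays, colored as tumors, WAP-SVT/t glands and NMRI glands, for the brightest probe sets of Cldn3, Cldn4, Tjp1 and Epcam. Cldn3 is lowest, at 471, on an array with a ratio of 22.5, and Epcam shows no such slope.

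Epcam varied with Cldn3, Cldn7, Dsp and Spint1 over the 12 arrays, and not over the 9 tissue arrays. Over all 12, Epcam correlated at 0.98 with Cldn7, 0.92 with Spint1, 0.87 with Cldn3 and 0.79 with Dsp. Over the 9 tissue arrays alone the same values were -0.22, -0.003, -0.02 and -0.02. The values over 12 arrays rest on the 2 ME-B lines, which lie far from the rest. Cldn3 stayed with Cldn7 (0.87) and with Cldn4 (0.75) in the tissues, where all 3 also share the direction of their relation with the Gapdh ratio. Tjp1 was at 0.32 with Epcam over 12 arrays and at 0.71 over the tissue arrays, and at -0.52 with Crb3 over both.

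For each gene the most similar profiles among 8187 genes were taken by Pearson's r of log2 signal over the 12 arrays. For Epcam they were Krt8 (0.99), Esrp1 (0.99) and Dsg2 (0.99), with 0.74, -0.09 and 0.33 over the 9 tissue arrays. Cldn7 was closest to Fxyd3, Syne4 and Lcn2, with 0.91, 0.81 and 0.75 in tissues. Cldn3 was closest to Grb7, Cxcl16 and Celsr2, and Cldn4 to Tnf, Bik and Dera, at 0.88 to 0.91 over 12 arrays for Cldn4. Dsp was closest to Cystm1, Ppl and Gdpd5, and Ppl encodes periplakin, which also links filaments to desmosomes. Spint1 was closest to Ccdc88c, Rbm47 and Galnt3 at 0.96 each. Tjp1 was closest to Sucla2, Acadl and Med10, and Crb3 to Slc4a4, Dhrs1 and Sh2b1. For Tjp1, Crb3 and Cldn4 the values over tissues were about as high as over 12 arrays, which was not so for Epcam. They were 0.87 to 0.93 for Tjp1, 0.95 in each case for Crb3 and 0.85 to 0.89 for Cldn4. The 12 arrays over which the profiles were picked include the 9 tissue arrays, so the tissue values are no separate check of the likeness.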

How the data were processed

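Single-color arrays with 22690 probe sets each were run on RNA of 12 samples. The authors deposited one linear intensity per probe set and array, made with MAS5, per the submitters' processing notes. The MAS5 version, scaling target and detection calls stay unstated in the sources used here. Every array was brought to the same trimmed mean (2% of probe sets cut at each end). Intensities below the pooled 30th percentile (57.4) were raised to it, and log2 was taken. Control probe sets (64) and those that name several genes (691) or none (1555) were left out. Each gene was represented by its probe set with the highest mean in that fit, provided that at least 3 arrays exceeded the pooled median of 139.9 (1 line where lines were compared). Testing used limma 3.58.1 and R 4.3.3 (lmFit, eBayes with trend, two-sided, Benjamini-Hochberg over all genes). The 9 tissue arrays formed 1 fit with 6 residual degrees of freedom, and lines and tumors another with 4. The limma step was run on simulated data with independent noise on each array. Arrays that deviate together were not simulated, so that run does not show how such deviations act on the p-values. Lines were set against each other by a 4-fold rule with no test. The number of arrays limits the precision. The p-values set each difference against the spread between these samples and treat the arrays as independent. No source says how the samples of a group were bred or collected, so whether they are independent is not known.

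Same-numbered WAP-SVT/t and NMRI glands deviated together from their group means, with correlations of 0.22, 0.37 and 0.37 over 7899 genes. The labels do not say what the numbers mark. Arrays of different numbers reached 0.34 (WAP-SVT/t gland 3 and tumor 1). Gapdh ratios ranked in the same order over the numbers in both gland groups, and the source of the correlations was not tested. The main fits were unpaired, and a block of the replicate numbers was used only as another setting. Tumor 2 had same-number correlations of 0.33 with WAP-SVT/t gland 2 and 0.16 with NMRI gland 2. For tumors 1 and 3 such values lay between -0.17 and 0.015, so the tumors' numbers did not pair all of them with glands. The members and the related lists were chosen with earlier results of these data known. All 8 members were named. Of each related list at most 3 called genes in each direction were named, by smallest p or, for lines, largest fold, and for each member the 3 closest profiles. Promoter letters came from the RefSeq promoter table, build GRCm38.p6. Python 3.11.15 and matplotlib 3.10.9 drew the figures.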

Additional observations from a re-analysis of the deposited data

How the results depend on the processing

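The number of the 8 genes called in WAP-SVT/t against NMRI glands was 2. It was 0 without scaling, with scaling on Krt8 and Krt18 or with the mean of a gene's probe sets, and 1 with the floor at the 10th percentile, no filter, every probe set on its own, no intensity trend, only the groups compared, or both glands numbered 3 left out (this alternative was chosen after seeing the data). Leaving out 1 array gave 0 to 1. With the replicate block Crb3 and Spint1 were both called (adjusted p = 0.0187 and 0.0420, limma), also with the 6 glands alone (0.0188 and 0.0283, chosen after seeing the data), where 1177 genes were called. In tumors against WAP-SVT/t glands the count was 0, and 1 (Dsp, adjusted p = 0.0386, limma) with the replicate block. Leaving out 1 array gave 0 to 1. In tumors against NMRI glands it was 1, and 2 with quantile normalization, every probe set on its own, the mean of probe sets, only the groups compared, or the Gapdh ratio as a covariate. The block changed no other member call. In lines against tumors it was 0, 1 with array weights (Epcam, adjusted p = 0.0460, limma), and 0 to 5 with 1 array left out. In ME-A against the ME-B lines 6 genes were past 4-fold, all higher. With keratin scaling, which moved the median of all genes to -4.63, 3 were, of which 1 was higher (Epcam) and 2 lower (Tjp1 and Crb3). In ME-B-T/t against ME-B, 0 became 1 with log2(signal + 16) and 2 at 2-fold.

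In the replicated comparisons, the log2 differences that turned sign were of members not called there. In WAP-SVT/t against NMRI glands, Cldn4 turned to 0.057 without scaling, 0.012 with keratin scaling and 0.22 without both glands numbered 3, where Cldn3 turned to 0.37. In tumors against WAP-SVT/t glands, quantile normalization gave -0.060 for Cldn4 and 0.061 for Epcam, the mean of probe sets -0.14 for Crb3, and the Gapdh covariate -0.21 for Cldn3 and -1.17 for Cldn4. In tumors against NMRI glands, no scaling gave 0.060 for Cldn4 and 0.038 for Epcam, quantile normalization 0.052 for Cldn7 and 0.49 for Epcam, keratin scaling 0.10 for Cldn4 and 0.081 for Epcam, the Gapdh covariate -0.78 for Cldn3 and 0.12 for Tjp1, and leaving out both glands numbered 3 gave 0.071 for Epcam. In lines against tumors Tjp1 turned to 0.015 without scaling, 0.0017 with array weights and 0.19 with the Gapdh covariate, and Crb3 to -0.14 with the mean of probe sets. Keratin scaling, which moved the median of all genes there to 3.97, gave 0.94 for Cldn3, 3.36 for Cldn4, 0.42 for Cldn7, 1.09 for Dsp, 1.71 for Spint1 and 3.96 for Tjp1. In ME-A against the ME-B lines it gave -1.48 for Cldn4, -1.80 for Dsp, -0.79 for Spint1 and -3.98 for Crb3. The cause of these turns was not tested.

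With 1 array left out, WAP-SVT/t against NMRI glands ranged between -0.70 and 0.61 for Cldn4, -0.96 and 0.38 for Cldn3, and -0.0045 and 0.33 for Epcam. Tumors against WAP-SVT/t glands ranged between -0.41 and 0.69 for Cldn4 and -0.012 and 0.55 for Cldn7. Tumors against NMRI glands ranged between -0.092 and 0.95 for Cldn3, -0.57 and 0.64 for Cldn4, -0.26 and 0.078 for Epcam, and -0.36 and 0.0059 for Tjp1. Lines against tumors ranged between -0.22 and 0.14 for Tjp1. Over all genes, calls ranged between 394 and 1177 in WAP-SVT/t against NMRI glands (main 801), 69 and 283 in tumors against WAP-SVT/t glands (233), 1075 and 2683 in tumors against NMRI glands (1949), and 0 and 779 in lines against tumors (169). The rule between lines gave 316 to 11537 genes for ME-A (386) and 105 to 985 for ME-B-T/t (134). Without scaling, 584 genes were higher and 236 lower in WAP-SVT/t than NMRI glands, against 481 and 320 with it, and the median of all genes was 0.11. With keratin scaling, 707 were higher and 368 lower in tumors than NMRI glands, and that median was 0.17.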
